A study of Rattus norvegicus with 12 samples.

Results

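The nuclear genes for the subunits of respiratory chain complexes I to IV and of ATP synthase (complex V) were described in rat liver after 4 kinds of preservation. Members were the protein-coding genes whose symbol begins with Nduf followed by a subunit letter and number (complex I), Sdha to Sdhd (complex II), Uqcr (complex III), Cox4 to Cox8 (complex IV) or Atp5 (complex V). They numbered 84 of 33744 genes, with 37 for complex I, 4 for complex II, 8 for complex III, 19 for complex IV and 16 for complex V. RNA-seq libraries came from 12 livers of male Sprague Dawley rats aged 6 to 8 weeks, 3 livers per group and 1 library per liver, a model of donation after circulatory death (DCD). Every liver had 30 min of warm ischemia and was then flushed. The HOPE 1 h group was kept for 3 h in cold storage and then for 1 h on hypothermic machine perfusion with oxygenated perfusate, and HMP 1 h livers had the same storage and perfusion without added oxygen. The SCS 4 h group was kept in static cold storage for 4 h, and WI 30 min livers had no treatment after warm ischemia. Tissue was sampled before any simulated transplantation, so storage plus perfusion lasted equally long in the HOPE 1 h, HMP 1 h and SCS 4 h groups, while WI 30 min livers had neither.

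Complex I takes electrons from NADH and complex II takes them from succinate, ubiquinone carries them to complex III, and cytochrome c carries them to complex IV, which reduces oxygen to water. Complexes I, III and IV pump protons across the inner mitochondrial membrane, and ATP synthase uses the returning protons to make ATP. Hepatocytes are rich in mitochondria, and their complexes I, III, IV and V also contain a few subunits encoded by mitochondrial DNA, while all complex II subunits are nuclear.

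Total counts were 15262961 to 18343167 per liver, so 3 counts, the floor used for genes at 0, correspond to 0.164 to 0.197 CPM (counts scaled to a common library size). This floor uses the total count, and the CPM of genes are after TMM normalization. Hepatocyte markers (Alb, Apoa1, Ttr and others) summed to between 137899 and 217998 CPM in every liver, which fits the tissue label. The summed markers of Kupffer cells reached 679 CPM in HOPE liver 3 and 1162 CPM in HMP liver 1, against 316 to 503 CPM in the other 10 livers, and the sinusoidal and stellate markers were also highest in these 2 livers. The 5 erythroid markers (3 globins, Alas2 and Slc4a1, none at 0 in any liver) summed to 1188 to 1829 CPM in HOPE 1 h livers, 263 to 2551 CPM in HMP 1 h livers, 568 to 1787 CPM in SCS 4 h livers and 3396 to 4591 CPM in WI 30 min livers. The 13 mRNAs of mitochondrial DNA took 18.6% of the counts of HMP liver 1 and between 4.77% and 10.1% of those of the other 11 livers. In bulk tissue, fewer cells of a type and less RNA per cell cannot be told apart. No source used here says how livers were assigned to library batches, and p-values measure the spread between these livers.

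The filter on low counts kept 74 of the 84 members (35 of complex I, 4 of complex II, 8 of complex III, 11 of complex IV and 16 of complex V). The 10 others were the isoforms Cox4i2 (77 counts over the 12 livers), Cox6b2 (62), Ndufa4l2 (18), Cox8b (6) and Cox7a1 (4), and Cox6a2, Cox6c-ps1, Cox7b2, Cox8c and Ndufa10l1, with 0 counts in all livers. Levels are compared between genes as deposited FPKM, which divide by transcript length. The median member of complex V had 186 FPKM, of complex IV 177, of complex II 116, of complex III 102 and of complex I 74.8. The most abundant was Atp5f1b, the catalytic beta subunit of ATP synthase, at 713 FPKM (median of 12 livers), followed by Cox4i1, a nuclear subunit of cytochrome c oxidase (complex IV), at 431 FPKM. Ndufa4, named with complex I but now known as a subunit associated with cytochrome c oxidase, led its prefix at 223 FPKM. The 4 subunits of complex II were close together, between 105 FPKM for Sdha and 131 FPKM for Sdhb.

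**Figure D1:**
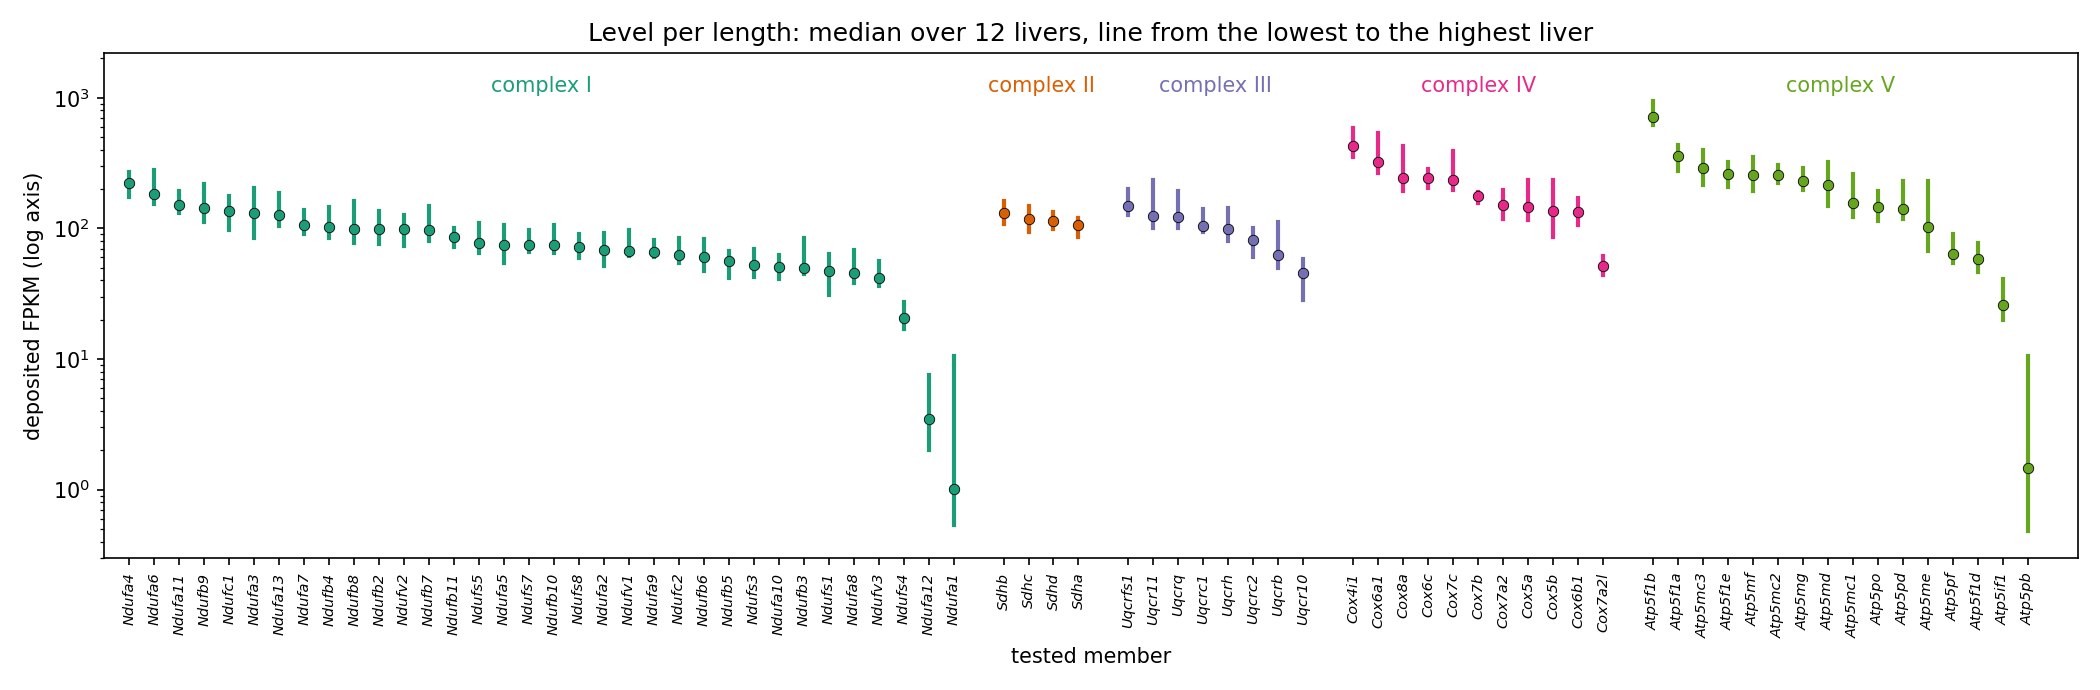
Deposited FPKM (log axis) of 73 of the 74 tested members, by complex, as the median over 12 livers with a line from the lowest to the highest liver. Complex II spans 105 to 131 FPKM, while complex V spans 1.46 (Atp5pb) to 713 FPKM (Atp5f1b).

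Very low values at some members, Ndufa1 and Atp5pb, belong to rows that share their sequence with a near-identical copy. Ndufa12 was also low, at 3.45 FPKM and 723 counts in all, but was not among the members with a copy considered here. Ndufa1, an accessory subunit of complex I, had 116 counts in all, and a row annotated as a copy of it (LOC108348144) had 1583. Atp5pb, subunit b of the ATP synthase stalk, had 1149 counts and its copy (LOC100911417) 2510. The copy of Atp5pb had 1.65, 1.24 and 2.26 CPM in HOPE 1 h livers, 27.6, 2.06 and 29.1 CPM in HMP 1 h livers, 41.2, 35.3 and 1.64 CPM in SCS 4 h livers and 3.55, 1.94 and 1.15 CPM in WI 30 min livers. It was thus high in 4 of 12 livers from 2 groups, and the values of both genes are uncertain. With both rows summed, the log2 fold change of Atp5pb against SCS 4 h was −2.77 (SE 0.728) in HOPE 1 h livers. It was −0.23 (SE 0.666) in HMP 1 h livers, and 2.44 (SE 0.716) in SCS 4 h against WI 30 min livers. Uqcrb was counted on a chromosome 1 row (6430 counts) and a chromosome 7 row (3498). RefSeq lists the gene on chromosome 7 and a pseudogene on chromosome 1. The chromosome 1 row, with the higher count, is the member used here, so the values of Uqcrb are uncertain as well. With both rows summed, its log2 fold change in HOPE 1 h against SCS 4 h livers was −0.60 (SE 0.203). Cox6b1 likewise stood on 2 rows, with 16351 and 2528 counts. The gamma subunit Atp5f1c, and Ndufb1 and Ndufs6, were not analysed here under these symbols.

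Across the livers the members were highest after static cold storage. The median over the 74 tested members of log2 CPM, centred for each gene on the 12 livers, was −0.24, −0.13 and −0.10 in HOPE 1 h livers, −0.24, −0.07 and 0.03 in HMP 1 h livers, 0.30, 0.36 and 0.12 in SCS 4 h livers and 0.11, 0.02 and −0.17 in WI 30 min livers. All SCS 4 h livers lay above all other livers on this measure, the HOPE 1 h and HMP 1 h livers overlapped, and WI livers 2 and 3 lay within the range of the perfused livers. The members held between 0.711% and 0.811% of all counts in HOPE 1 h livers, 0.722% to 0.785% in HMP 1 h livers, 0.870% to 1.17% in SCS 4 h livers and 0.800% to 0.945% in WI 30 min livers. SCS 4 h had the highest group mean of log2 CPM for 73 of 74 tested members, against 24.2% of all tested genes, with Ndufa1 (highest in HMP 1 h) the exception. On the CPM scale the uncertain Atp5pb was also highest in HMP 1 h, at 8.67 ± 11.6 CPM, against 7.10 ± 6.95 CPM in SCS 4 h livers (SD, n = 3 each). The lowest mean was in HOPE 1 h for 48 members, in HMP 1 h for 21 and in WI 30 min for 5. For 18 members every SCS 4 h liver lay above the other 9 livers, against 1.37% of all tested genes, and these were 10 members of complex I, 2 of complex III, 1 of complex IV, 5 of complex V and 0 of complex II.

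**Figure D2:**
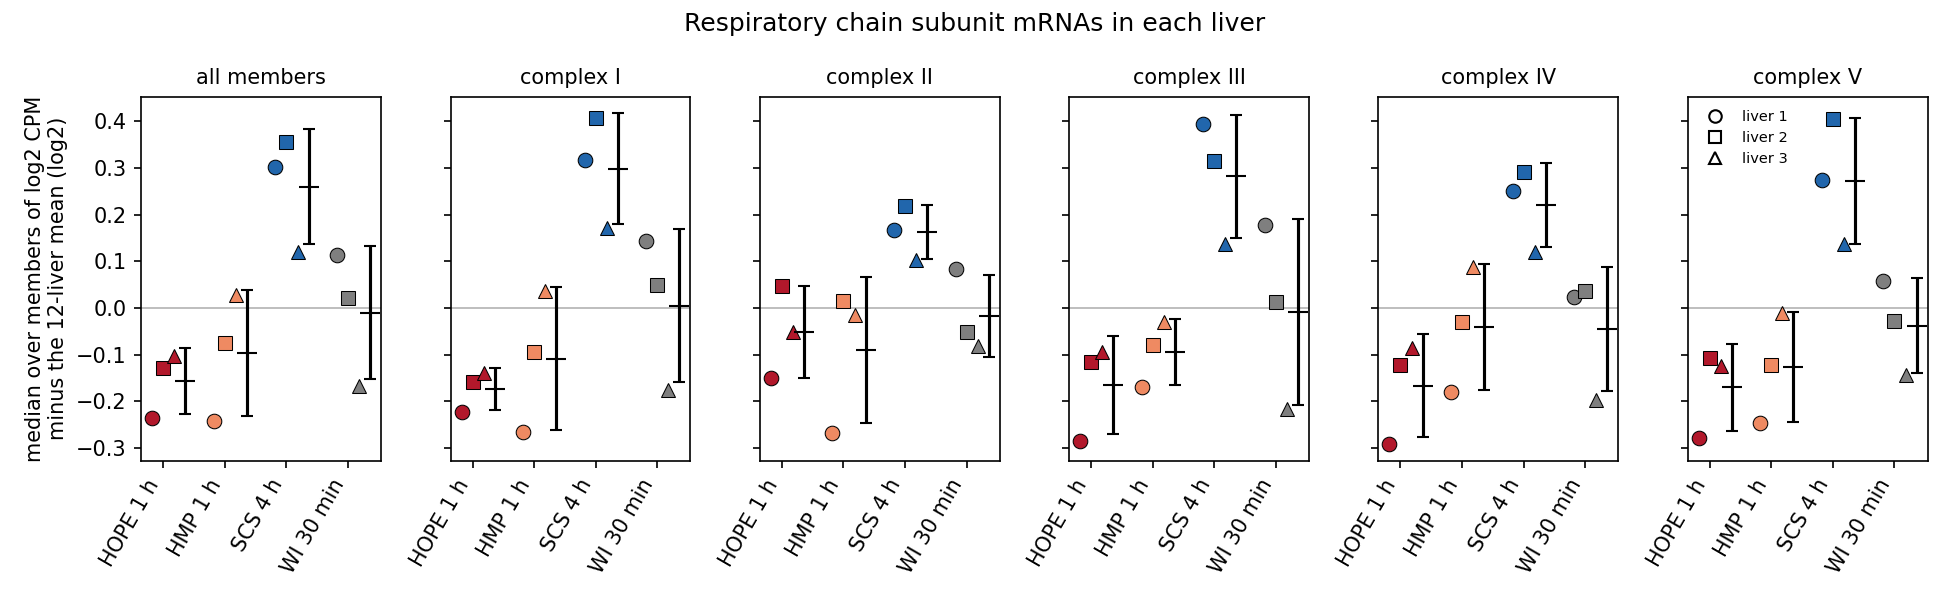
Median over members of centred log2 CPM in each liver, for all 74 tested members and for complexes I to V, with circle, square and triangle for livers 1, 2 and 3 and bars for the group mean ± SD (n = 3). For all members the means are −0.16 ± 0.07 in HOPE 1 h, −0.10 ± 0.14 in HMP 1 h, 0.26 ± 0.12 in SCS 4 h and −0.01 ± 0.14 in WI 30 min.

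**Figure D3:**
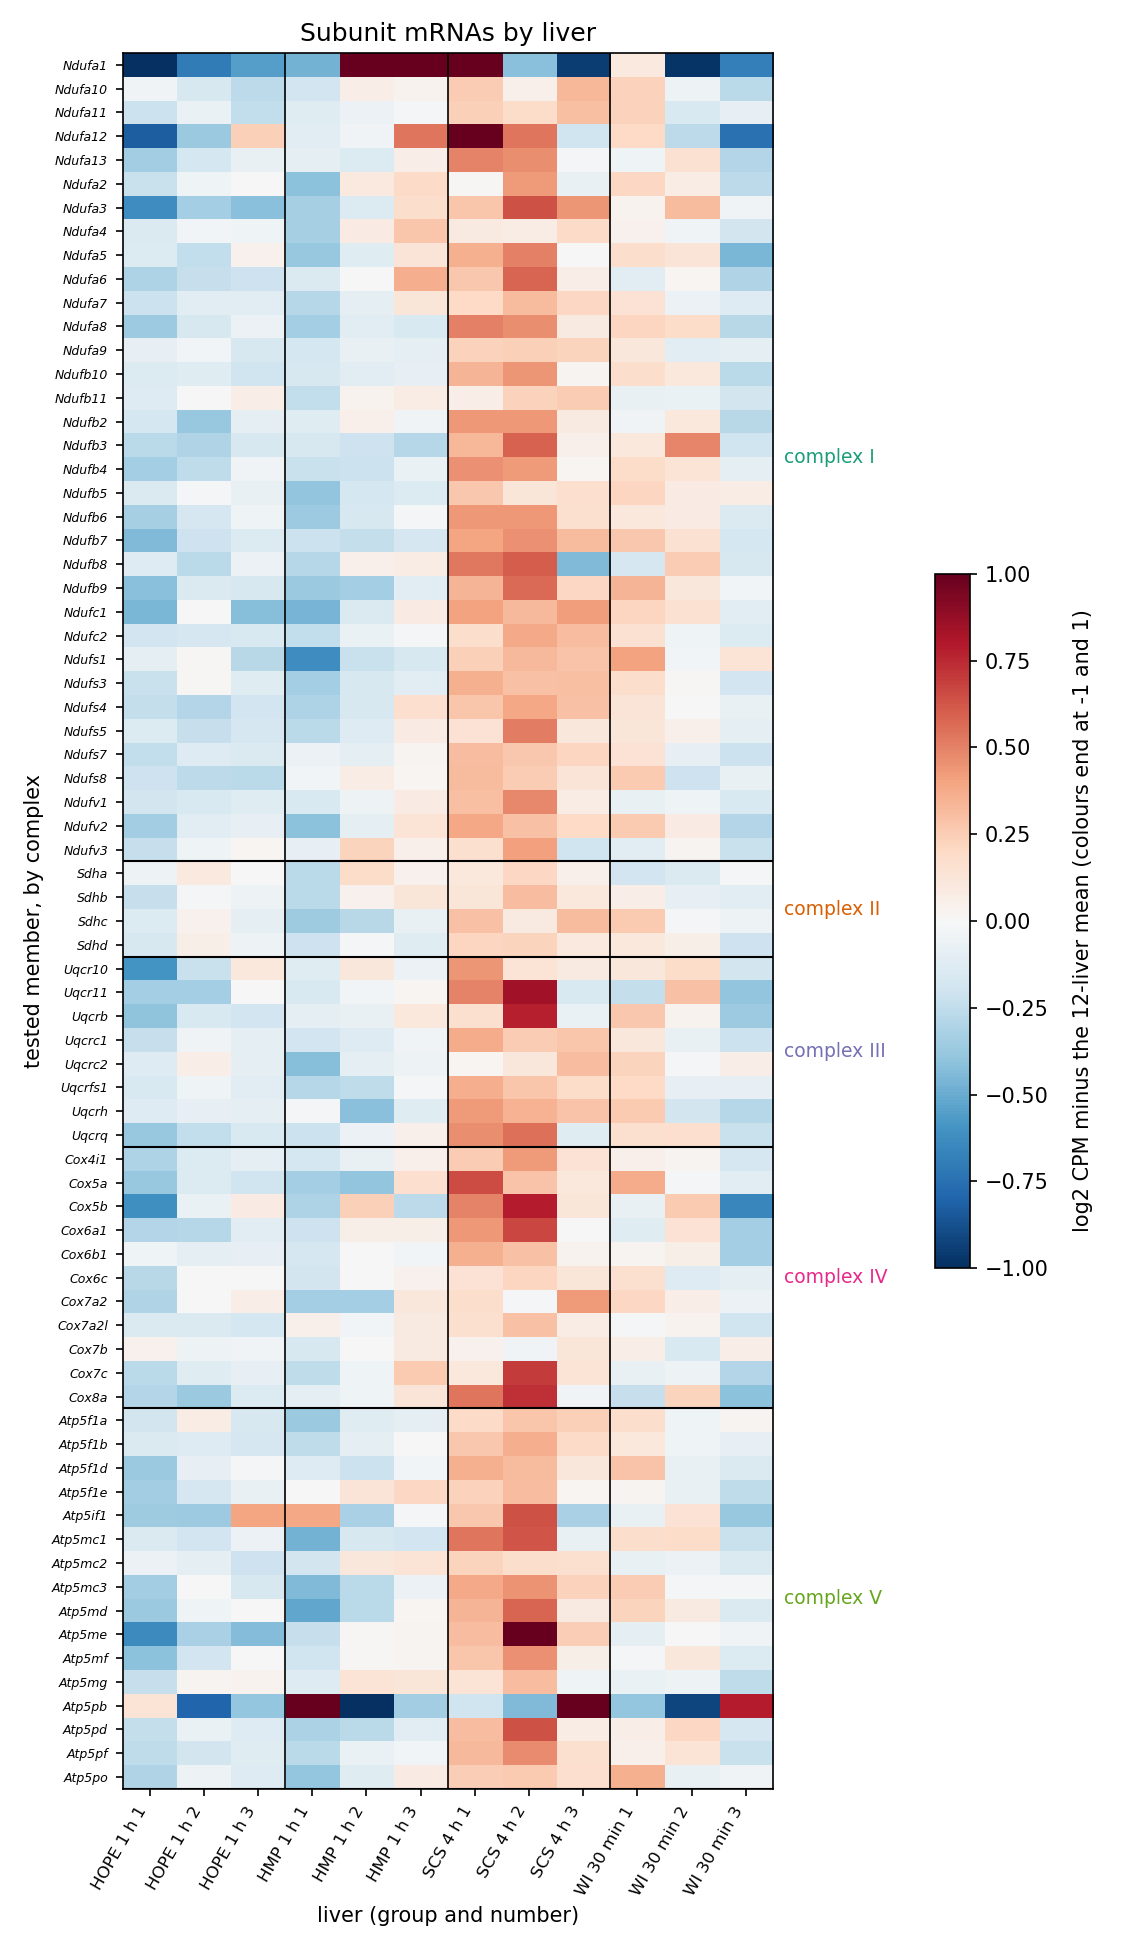
Log2 CPM of 73 of the 74 tested members minus their mean over the 12 livers (colours end at −1 and 1), with livers in columns by group and members in rows by complex. The SCS 4 h columns are mostly above the mean, and over all 74 members 73, 70 and 60 were higher than their own mean in SCS livers 1, 2 and 3, while HOPE liver 1 had 2 and HMP liver 1 had 3.

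Each pair of groups was tested with edgeR's quasi-likelihood test in 1 model over all 13687 tested genes. At a Benjamini-Hochberg adjusted p under 0.05 it called 0 of 74 members in any of the 6 pairs, and 0% of all genes in each of the HOPE 1 h vs HMP 1 h, HOPE 1 h vs SCS 4 h, HOPE 1 h vs WI 30 min, HMP 1 h vs SCS 4 h, HMP 1 h vs WI 30 min and SCS 4 h vs WI 30 min comparisons. The same test for any difference among the 4 groups called 0% of all genes and 0 members (lowest adjusted p of a member 0.144), with 46 members at an unadjusted p under 0.05, against 12.3% of all genes. DESeq2, run as an alternative, called 18 members in that test, against 4.04% of the 13375 genes to which it gave an adjusted p. Later shares for DESeq2 are likewise of the genes with an adjusted p, which differ in number between comparisons.

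Between HOPE 1 h and SCS 4 h, 57 members were lower at an unadjusted p under 0.05 and 0 higher, against 6.84% of all genes lower. The HOPE 1 h livers all lay below the SCS 4 h livers for 58 members, against 10.3% of all genes. DESeq2 called 24 members lower of 71 with an adjusted p, against 2.46% of 6979 genes. The median log2 fold change of the members was −0.45, beside 0.04 over all tested genes, and the lowest edgeR adjusted p was 0.268. With 1 library left out, between 44 and 60 members were lower at an unadjusted p under 0.05, and 59 with HMP liver 1 and HOPE liver 3 left out together. Between HMP 1 h and SCS 4 h the members had a median of −0.39, beside 0.04 over all genes, with 49 lower at an unadjusted p under 0.05 against 8.56% of all genes. The HMP 1 h livers all lay below the SCS 4 h livers for 44 members, against 10.6% of all genes. DESeq2 called 16 members lower, against 2.47% of 11873 genes, and the lowest edgeR adjusted p was 0.0880. The count of 49 became 31 without HMP liver 1, 32 without SCS liver 2 and 51 without SCS liver 3. It was 27 without HMP liver 1 and HOPE liver 3 together, 31 with a length offset and 29 with an abundance offset.

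Between SCS 4 h and WI 30 min all 74 members had a positive log2 fold change, with a median of 0.28 beside 0.01 over all genes. Of these, 28 were higher at an unadjusted p under 0.05, against 2.77% of all genes, and for 27 the SCS 4 h livers all lay above the WI 30 min livers, against 7.13% of all genes. The lowest edgeR adjusted p was 0.962 and DESeq2 called 0 members in this comparison. The count of 28 depended on single livers, being 3 without WI liver 3, 7 without SCS liver 2, 12 without SCS liver 1 and 39 without SCS liver 3. Leaving out a library also leaves fewer livers in its group, and the counts over all genes in these fits were not compared. With a length offset the count was 5. The summed erythroid markers of every SCS 4 h liver lay below those of every WI 30 min liver, and their part in this result was not tested. These 3 comparisons share the SCS 4 h livers, so the lower values of perfused livers and the higher values against WI 30 min livers rest on the same 3 libraries.

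**Figure D4:**
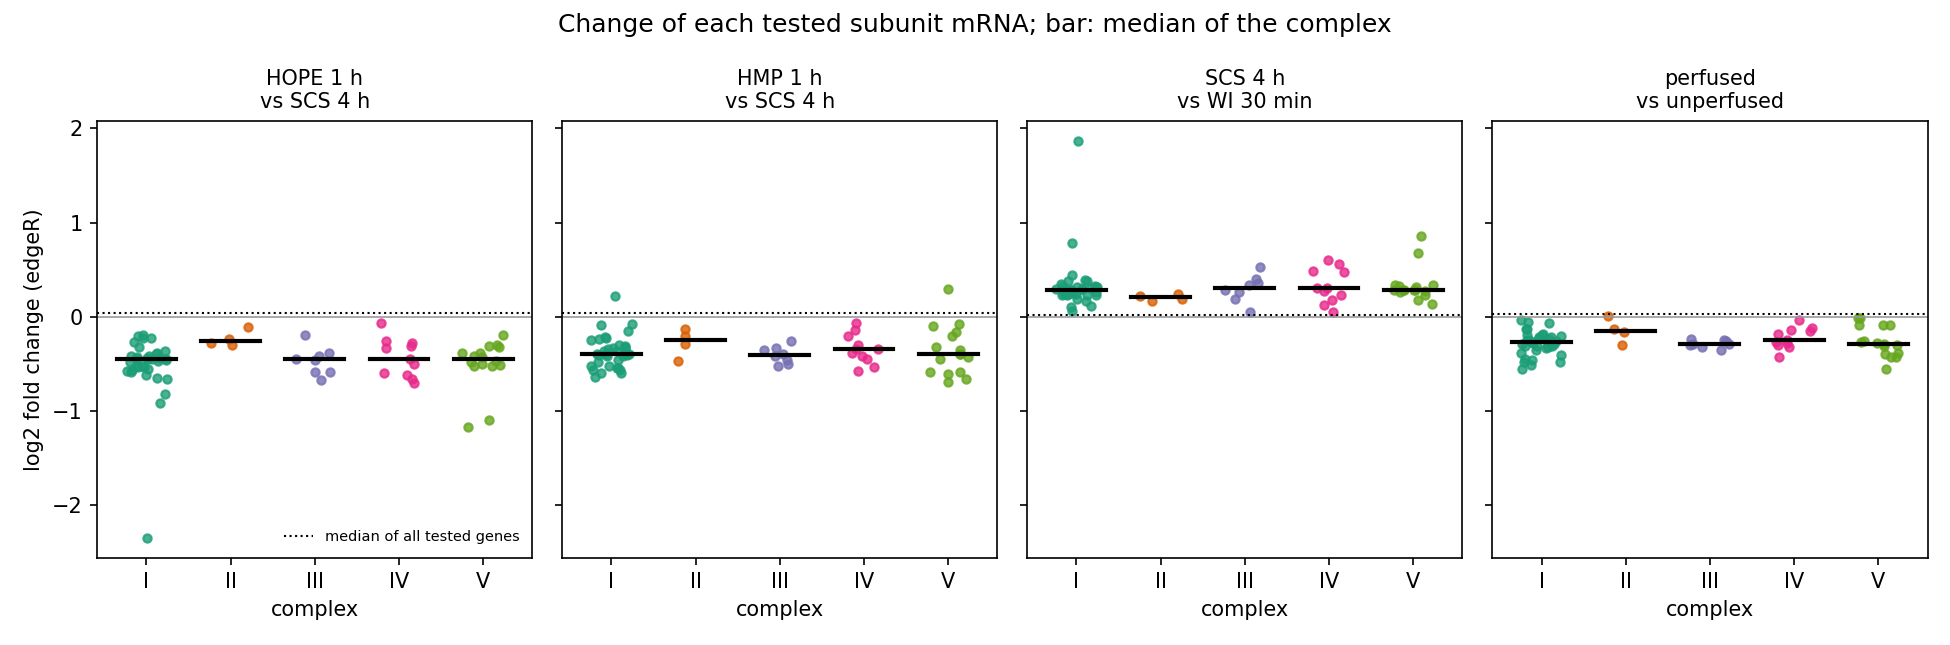
Log2 fold change of each tested member (points, by complex) in HOPE 1 h vs SCS 4 h, HMP 1 h vs SCS 4 h, SCS 4 h vs WI 30 min and perfused vs unperfused livers, with a bar at the median of each complex and a dotted line at the median of all tested genes. The median of complex II is −0.25 in HOPE 1 h vs SCS 4 h, and those of complexes I, III, IV and V are −0.45.

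Perfused livers (HOPE 1 h and HMP 1 h, n = 6) were also compared with unperfused livers (SCS 4 h and WI 30 min, n = 6). In this comparison 3 of 74 members fell and 0 rose at an adjusted p under 0.05, against 0.753% of all genes that fell. At an unadjusted p under 0.05, 46 members were lower, against 8.85% of all genes, and between 37 and 55 with 1 library left out. DESeq2 called 24 members lower, against 3.51% of 12997 genes, and the median of the members was −0.27, beside 0.03 over all genes. The erythroid markers of the WI 30 min livers, which are among the unperfused livers here, were above those of the other 9 livers, and their part in this comparison was not tested. Perfused livers all lay below unperfused livers for Ndufb5 and Ndufb9, 2 members, against 1.21% of all genes.

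The 3 members that fell were accessory subunits of the membrane arm of complex I. Ndufa3 (ENSRNOG00000060293, minus strand of chromosome 1, 64172540 to 64175099 in Rnor_6.0) had 23.4, 28.4 and 26.9 CPM in HOPE 1 h livers, 28.5, 32.7 and 40.6 CPM in HMP 1 h livers, 43.6, 55.9 and 48.8 CPM in SCS 4 h livers and 36.8, 44.8 and 34.99 CPM in WI 30 min livers. The HOPE 1 h livers were the 3 lowest of the 12, and HMP liver 3 lay among the WI 30 min livers. The log2 fold change of perfused over unperfused livers was −0.55 (standard error, SE, 0.112, 95% interval −0.80 to −0.31, edgeR adjusted p = 0.0454). Against SCS 4 h it was −0.91 (SE 0.160) in HOPE 1 h livers and −0.54 (SE 0.159) in HMP 1 h livers.

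Ndufb7 (ENSRNOG00000028717, plus strand of chromosome 19, 24701049 to 24705405), a subunit that faces the intermembrane space, had 44.1, 52.0 and 54.6 CPM in HOPE 1 h livers, 51.7, 50.8 and 53.4 CPM in HMP 1 h livers, 78.9, 82.5 and 74.8 CPM in SCS 4 h livers and 72.6, 66.8 and 53.1 CPM in WI 30 min livers. Only WI liver 3 lay within the range of the perfused livers. The log2 fold change of perfused over unperfused livers was −0.48 (SE 0.0916, 95% interval −0.68 to −0.28, edgeR adjusted p = 0.0413).

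Ndufb9 (ENSRNOG00000009364, plus strand of chromosome 7, 98813040 to 98819452), a subunit of the same arm that carries the LYR motif known from several mitochondrial proteins, had 78.6, 94.8 and 94.2 CPM in HOPE 1 h livers, 81.0, 83.1 and 97.7 CPM in HMP 1 h livers, 133, 155 and 121 CPM in SCS 4 h livers and 133, 113 and 103 CPM in WI 30 min livers. The perfused and unperfused livers did not overlap. The log2 fold change was −0.51 (SE 0.101, 95% interval −0.74 to −0.29, edgeR adjusted p = 0.0432).

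Ndufb5, an accessory subunit of the same arm, did not pass the adjusted threshold although its groups did not overlap either. It had 53.2, 58.4 and 56.0 CPM in HOPE 1 h livers, 44.7, 52.2 and 53.7 CPM in HMP 1 h livers, 71.0, 64.1 and 66.4 CPM in SCS 4 h livers and 68.5, 62.4 and 62.0 CPM in WI 30 min livers. All 6 perfused livers lay below all 6 unperfused ones, with a log2 fold change of −0.31 (SE 0.0750, edgeR adjusted p = 0.0711).

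The calls of Ndufa3, Ndufb7 and Ndufb9 were close to the threshold. Over the alternatives, the adjusted p ranged between 0.00119 (DESeq2) and 0.121 for Ndufa3, between 0.000323 (DESeq2) and 0.121 for Ndufb7 and between 0.000404 (DESeq2) and 0.123 for Ndufb9, with a negative log2 fold change in every alternative run. When 1 library was left out, edgeR called 3 members without HMP liver 3 (not the same 3) and 4 without WI liver 3. It called 0 members without any of the other 10 libraries (HOPE livers 1, 2 and 3, HMP livers 1 and 2, SCS livers 1, 2 and 3, and WI livers 1 and 2), and 0 when HMP liver 1 and HOPE liver 3, which had the highest Kupffer markers, were left out together. An abundance-dependent offset also left 0 members called. Without HMP liver 3, Ndufb7 was not called (edgeR adjusted p = 0.0523), so another member made up that count. Ndufa3 was not called with length offsets (0.0545). With the replicate number as a block, Ndufb7 (0.0718) and Ndufb9 (0.0732) were not called. The calls over all genes changed as well. They were 140 with every library, 166 without WI liver 3 and 137 without HMP liver 3. Without 1 of the other 10 libraries they ranged between 0 (without HOPE liver 1 or HOPE liver 3) and 114 (without HMP liver 1).

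**Figure D5:**
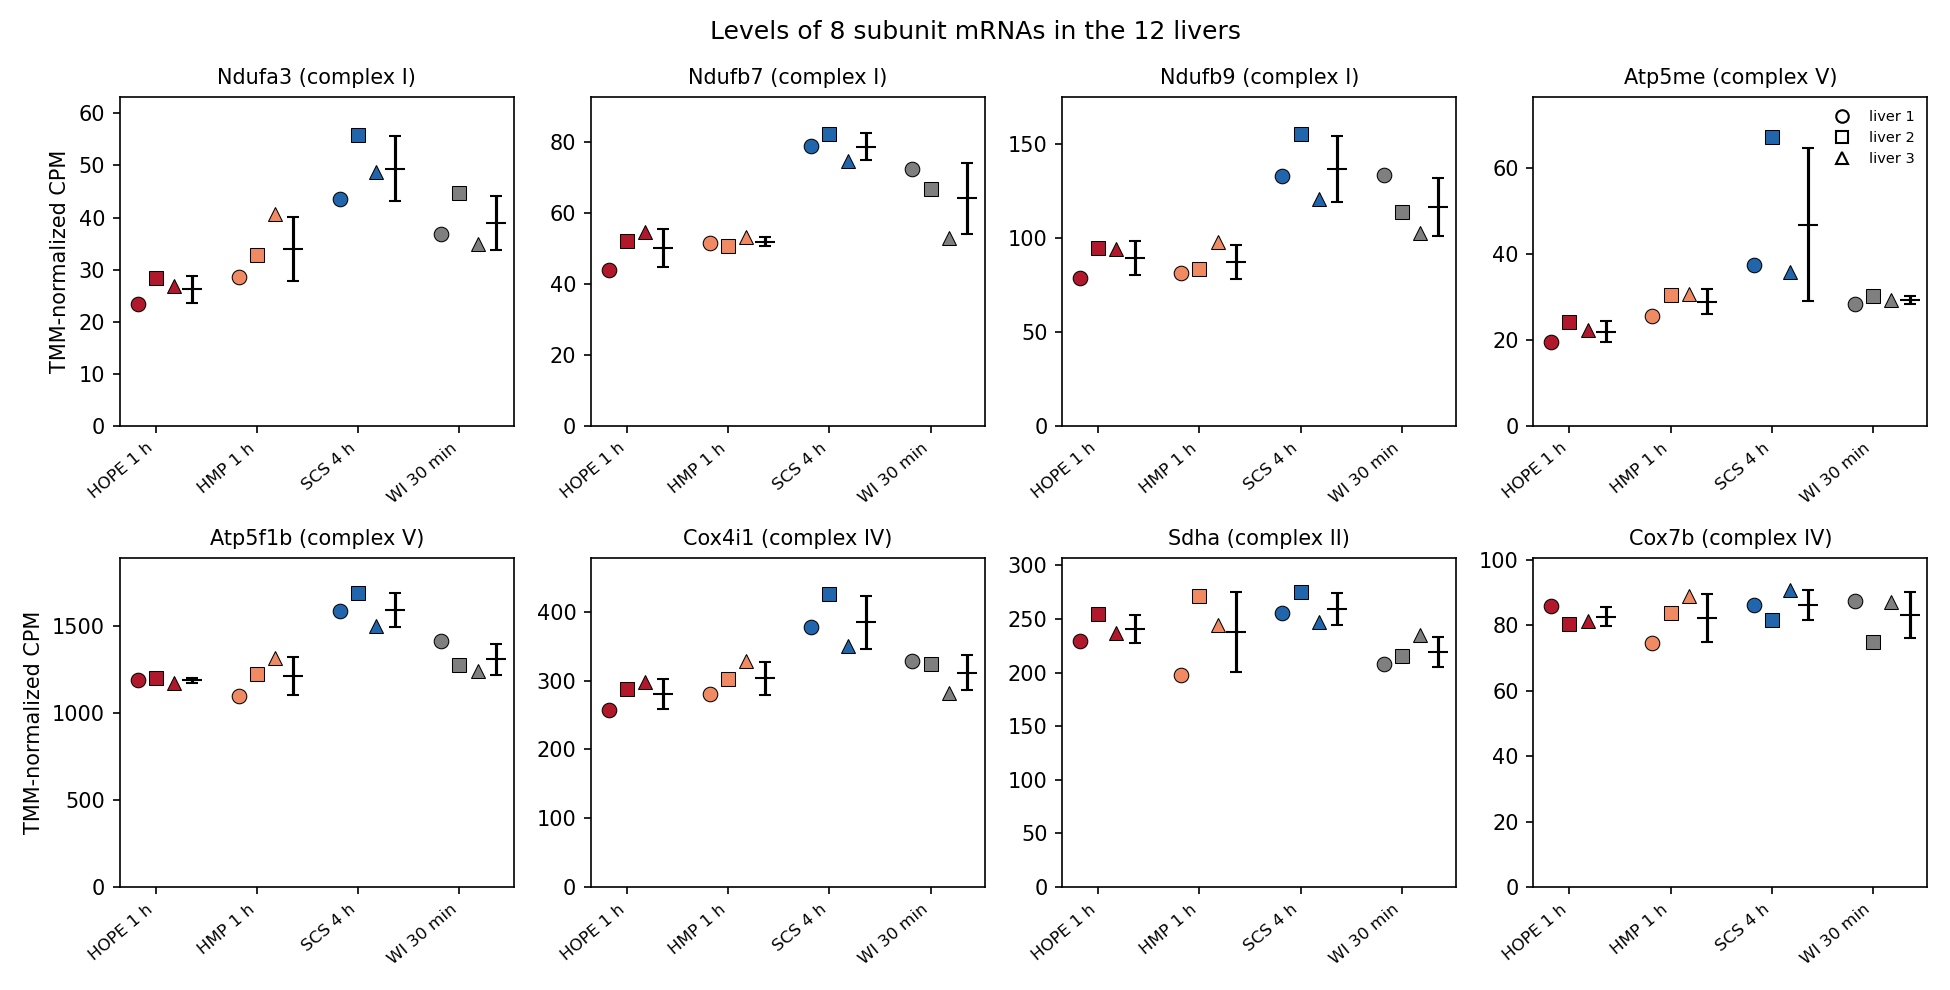
CPM after TMM normalization of 8 members in each liver (points), with group mean ± SD (n = 3 each), in the order HOPE 1 h, HMP 1 h, SCS 4 h and WI 30 min. Ndufa3 is at 26.2 ± 2.60, 33.9 ± 6.14, 49.4 ± 6.18 and 38.9 ± 5.21 CPM in these groups, whereas Cox7b is at 82.5 ± 2.92, 82.3 ± 7.34, 86.1 ± 4.53 and 83.1 ± 7.11 CPM.

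Promoters of 65 of the 74 tested members were matched by symbol in RefSeq (build GRCr8), and 250 bases before the start were searched on both strands for the letters of elements known to bind regulators of respiratory genes. GCGCATGC, the core of the NRF1 site, occurred in 8 promoters (12.3%), against 2.38% of all 27457 promoters and 4.54% of those of tested genes. CCGGAAG, the core of sites of ETS factors such as GABP, occurred in 19 (29.2%), against 7.74% of all and 15.02% of tested genes. AAGATGGC (YY1) occurred in 2 (3.08%, against 1.69% of all and 2.18% of tested genes), TCAAGGTCA (ERR) in 1 (1.54%, against 0.368% and 0.221%) and TATAAA in 4 (6.15%, against 13.1% and 6.52%). By complex, CCGGAAG was found for 7 of 32 promoters of complex I, 2 of 4 of complex II, 3 of 6 of complex III, 3 of 9 of complex IV and 4 of 14 of complex V. A match is a description of the letters and not a measured binding site. Ndufb9 was not matched in this table.

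The 150 bases just before the start are shown for Ndufa3 and Ndufb7, which fell in perfused livers, for Atp5me, which had the largest negative log2 fold change against SCS 4 h in complex V among genes without a copy, and for Ndufa11, whose NRF1 letters occur in tandem. Capitals mark the letters of NRF1 and ETS on either strand, and all are read 5′ to 3′ on the strand of the gene in GRCr8. Ndufa3 lies at chr1:74515559-74515708 (minus strand) and holds neither. Ndufb7 (chr19:41477292-41477441, minus strand) has the ETS letters starting 16 bases before the start. Atp5me (chr14:1464710-1464859, plus strand) has a palindromic NRF1 match and the reverse complement of the ETS letters, and Ndufa11 lies at chr9:1637464-1637613 (plus strand).
Ndufa3: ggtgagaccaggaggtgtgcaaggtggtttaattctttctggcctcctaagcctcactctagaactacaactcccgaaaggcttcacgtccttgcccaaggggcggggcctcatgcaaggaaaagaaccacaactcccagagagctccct
Ndufb7: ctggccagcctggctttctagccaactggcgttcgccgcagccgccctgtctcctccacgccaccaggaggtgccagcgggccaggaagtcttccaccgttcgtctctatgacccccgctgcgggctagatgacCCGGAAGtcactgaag
Atp5me: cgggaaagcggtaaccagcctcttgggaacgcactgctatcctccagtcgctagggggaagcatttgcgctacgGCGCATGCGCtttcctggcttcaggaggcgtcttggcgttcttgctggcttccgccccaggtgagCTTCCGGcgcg
Ndufa11: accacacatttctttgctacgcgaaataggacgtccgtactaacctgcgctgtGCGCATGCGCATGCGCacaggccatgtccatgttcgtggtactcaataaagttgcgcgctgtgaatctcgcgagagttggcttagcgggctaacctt

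In complex I, at an unadjusted p under 0.05, 28 of 35 tested members were lower in HOPE 1 h than after SCS 4 h. The share of all genes was 6.84%, and the median log2 fold change of the 35 was −0.45. In HMP 1 h against SCS 4 h livers 24 were lower, against 8.56% of all genes (median −0.40). None of these passed edgeR's adjusted threshold. By module, the median against SCS 4 h in HOPE 1 h livers was −0.45 over 9 genes of the NADH-binding module, −0.43 over 6 genes of the ubiquinone-binding module and −0.52 over 19 genes of the proton-pumping membrane arm. The 7 tested core subunits, the conserved catalytic ones, were all lower at an unadjusted p under 0.05, against 6.84% of all genes. Their median of −0.45 was like that over all tested members of complex I.

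Ndufs1, the largest iron-sulfur subunit, had 111, 119.8 and 97.7 CPM in HOPE 1 h livers, 77.3, 102 and 106 CPM in HMP 1 h livers, 139.7, 148 and 145 CPM in SCS 4 h livers and 157, 116 and 131 CPM in WI 30 min livers. HMP liver 1 was the lowest and WI liver 1 the highest of the 12, so for this gene the SCS 4 h and WI 30 min groups overlapped.

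Ndufv1, which holds the flavin mononucleotide and oxidises NADH, had 99.1, 101 and 104 CPM in HOPE 1 h livers, 101, 109 and 119 CPM in HMP 1 h livers, 139, 157 and 119 CPM in SCS 4 h livers and 107, 109 and 101 CPM in WI 30 min livers. The HOPE 1 h and WI 30 min livers had like levels, and the log2 fold change was 0.38 in SCS 4 h against WI 30 min livers (SE 0.120, unadjusted p = 0.00763, edgeR adjusted p = 0.962). Its partner Ndufv2 had log2 fold changes against SCS 4 h of −0.47 in HOPE 1 h and −0.40 in HMP 1 h livers (SE 0.168 in both). Ndufs3, a core subunit of the matrix arm, had 49.6, 58.3 and 53.2 CPM in HOPE 1 h livers, 45.6, 51.9 and 53.9 CPM in HMP 1 h livers, 74.1, 71.2 and 71.6 CPM in SCS 4 h livers and 65.4, 58.3 and 50.7 CPM in WI 30 min livers. Its SCS 4 h livers were within 3 CPM of each other and above the rest, with a log2 fold change of −0.52 in HMP 1 h against SCS 4 h livers (SE 0.120, edgeR adjusted p = 0.0948).

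Ndufs7 and Ndufs8 hold the iron-sulfur centres closest to ubiquinone. Ndufs8 had 47.0, 45.2 and 45.1 CPM in HOPE 1 h livers, 53.1, 57.2 and 54.9 CPM in HMP 1 h livers, 67.6, 64.7 and 59.3 CPM in SCS 4 h livers and 65.0, 46.9 and 51.5 CPM in WI 30 min livers. The HOPE 1 h livers lay below the HMP 1 h livers, with a log2 fold change of −0.27. No difference was detected at the adjusted threshold (edgeR adjusted p = 0.668). Ndufs7 had log2 fold changes against SCS 4 h of −0.44 in HOPE 1 h and −0.31 in HMP 1 h livers (SE 0.110 in both). Ndufs4, an accessory subunit whose loss causes Leigh syndrome in humans, had 26.8, 25.8 and 27.8 CPM in HOPE 1 h livers, 25.5, 28.4 and 35.5 CPM in HMP 1 h livers, 38.4, 41.3 and 38.9 CPM in SCS 4 h livers and 34.5, 31.7 and 30.1 CPM in WI 30 min livers. All SCS 4 h livers were above the other 9, and the log2 fold change in HOPE 1 h against SCS 4 h livers was −0.56 (SE 0.128, edgeR adjusted p = 0.287).

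Complex II, succinate dehydrogenase, had the smallest median against SCS 4 h of the 5 complexes, −0.25 in HOPE 1 h and −0.25 in HMP 1 h livers, from 4 genes. Whether it differs from the other complexes was not tested. At an unadjusted p under 0.05, 1 of 4 was lower in HOPE 1 h and 2 of 4 in HMP 1 h livers. The shares of all genes were 6.84% and 8.56%. In HOPE 1 h livers edgeR and DESeq2 called 0 of 4, while DESeq2 called Sdhc in HMP 1 h livers. Sdha, the flavoprotein that oxidises succinate, had 229.6, 255 and 237 CPM in HOPE 1 h livers, 197, 271 and 245 CPM in HMP 1 h livers, 256, 275 and 247 CPM in SCS 4 h livers and 208, 215 and 235 CPM in WI 30 min livers. The groups overlapped except for SCS 4 h above WI 30 min, and the log2 fold change in HOPE 1 h against SCS 4 h livers was −0.11 (SE 0.131, 95% interval −0.39 to 0.18). Perfused over unperfused, Sdha had a log2 fold change of 0.00 (SE 0.0927).

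Sdhc, a membrane anchor of complex II, had 125, 142 and 129 CPM in HOPE 1 h livers, 108, 114 and 131 CPM in HMP 1 h livers, 169, 147 and 171 CPM in SCS 4 h livers and 165, 136 and 133 CPM in WI 30 min livers. Both perfused groups lay below SCS 4 h, with log2 fold changes of −0.30 in HOPE 1 h and −0.46 in HMP 1 h livers (SE 0.128 in both, edgeR adjusted p = 0.429 and 0.143). The iron-sulfur subunit Sdhb had −0.28 and −0.21 and the other anchor Sdhd −0.23 and −0.29 in HOPE 1 h and HMP 1 h livers against SCS 4 h.

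In complex III, the cytochrome bc1 complex, 7 of 8 members were lower in HOPE 1 h livers than after SCS 4 h at an unadjusted p under 0.05 (median −0.45) and 5 of 8 in HMP 1 h livers (median −0.41). The shares of all genes were 6.84% and 8.56%. The adjusted threshold of edgeR was passed by none. Uqcrfs1, the Rieske iron-sulfur protein, had 151, 163 and 155 CPM in HOPE 1 h livers, 138, 141 and 165 CPM in HMP 1 h livers, 216, 204 and 191 CPM in SCS 4 h livers and 193, 158 and 159 CPM in WI 30 min livers. WI liver 1 lay between the lower 2 SCS 4 h livers, and both perfused groups were below SCS 4 h, with log2 fold changes of −0.38 in HOPE 1 h and −0.46 in HMP 1 h livers (SE 0.123 in both). Uqcrc1, a core protein on the matrix side, had 150.01, 173 and 165 CPM in HOPE 1 h livers, 155, 161 and 172 CPM in HMP 1 h livers, 228, 211 and 213 CPM in SCS 4 h livers and 190.4, 167 and 152 CPM in WI 30 min livers. Its SCS 4 h livers were above the other 9, while the second core protein Uqcrc2 overlapped between HOPE 1 h and SCS 4 h, with a log2 fold change of −0.20 (SE 0.135). Uqcrh, the hinge protein that helps bind cytochrome c1, had 53.3, 55.3 and 54.6 CPM in HOPE 1 h livers, 58.0, 43.6 and 53.8 CPM in HMP 1 h livers, 78.3, 74.4 and 71.2 CPM in SCS 4 h livers and 70.0, 51.4 and 48.0 CPM in WI 30 min livers. Its highest values were again those of the SCS 4 h livers, with WI liver 1 closest to them.

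In complex IV, at an unadjusted p under 0.05, 8 of 11 tested members were lower in HOPE 1 h than after SCS 4 h. The share of all genes was 6.84%, and the median of the 11 was −0.45. In HMP 1 h livers 7 of 11 were lower, against 8.56% of all genes (median −0.34). In both comparisons 0 were called by edgeR. Cox4i1 had 257, 289 and 298 CPM in HOPE 1 h livers, 280.5, 302 and 329 CPM in HMP 1 h livers, 377, 427 and 351 CPM in SCS 4 h livers and 328, 323 and 282 CPM in WI 30 min livers. The SCS 4 h livers were above the other 9, with a log2 fold change of −0.45 in HOPE 1 h livers (SE 0.128, edgeR adjusted p = 0.288). Cox8a, the widely expressed form of subunit VIII, had 104, 98.5 and 116 CPM in HOPE 1 h livers, 119.6, 124 and 139 CPM in HMP 1 h livers, 185, 211 and 125 CPM in SCS 4 h livers and 109, 149 and 96.2 CPM in WI 30 min livers. SCS liver 3 lay well below the other SCS 4 h livers and within the HMP 1 h range. The log2 fold change of HOPE 1 h over SCS 4 h was −0.71 (SE 0.201), and Cox6a1, the liver form of subunit VIa, had −0.62 (SE 0.178) with the same liver lowest in its group.

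Cox5a and Cox5b, subunits on the matrix side, had log2 fold changes against SCS 4 h of −0.60 and −0.66 in HOPE 1 h livers and −0.53 and −0.58 in HMP 1 h livers. Cox7b was the member of complex IV with the smallest difference. It had 85.9, 80.4 and 81.3 CPM in HOPE 1 h livers, 74.4, 83.6 and 89.0 CPM in HMP 1 h livers, 86.1, 81.6 and 90.6 CPM in SCS 4 h livers and 87.3, 74.9 and 87.2 CPM in WI 30 min livers. All groups overlapped, and its log2 fold change of −0.06 in HOPE 1 h against SCS 4 h livers (95% interval −0.30 to 0.18) turned positive under a length offset (0.13). Ndufa4 had −0.19 in HOPE 1 h and −0.09 in HMP 1 h livers against SCS 4 h (SE 0.146 in both), and Cox6c had −0.25 and −0.20 (SE 0.123 in both). Cox7a2l, known for joining complexes III and IV into supercomplexes, had −0.34 in HOPE 1 h and −0.14 in HMP 1 h livers against SCS 4 h (SE 0.103 in both).

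The alternative isoforms of complex IV were near 0. As a share of the FPKM of both isoforms, Cox4i2, which is induced by low oxygen in lung and other tissues, took 0.0293% to 0.155% beside Cox4i1, Cox6b2 took 0.157% to 1.04% beside Cox6b1, and Cox7a1, the heart and muscle form, 0% to 0.0275% beside Cox7a2. Markers of striated muscle summed to 0 to 0.686 CPM. Shares that rest on so few counts carry no order between the groups.

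In ATP synthase, at an unadjusted p under 0.05, 13 of 16 members were lower in HOPE 1 h than after SCS 4 h. The share of all genes was 6.84%, and the median of the 16 was −0.45. In HMP 1 h livers 11 of 16 were lower, against 8.56% of all genes (median −0.39). In both comparisons 0 were called by edgeR. The catalytic Atp5f1b had 1187, 1202 and 1170 CPM in HOPE 1 h livers, 1099, 1225 and 1314 CPM in HMP 1 h livers, 1584, 1689 and 1498 CPM in SCS 4 h livers and 1410, 1272 and 1241 CPM in WI 30 min livers. Its SCS 4 h livers were above the other 9, and relative to them the log2 fold change was −0.42 in HOPE 1 h livers and −0.39 in HMP 1 h livers (SE 0.131 in both). The alpha subunit Atp5f1a had −0.32 and −0.43 in the same comparisons (SE 0.133 in both).

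Atp5me, subunit e at the dimer interface (plus strand of chromosome 14, 2325308 to 2326436 in Rnor_6.0), had 19.4, 24.1 and 22.3 CPM in HOPE 1 h livers, 25.6, 30.4 and 30.7 CPM in HMP 1 h livers, 37.3, 67.3 and 35.8 CPM in SCS 4 h livers and 28.3, 30.1 and 29.3 CPM in WI 30 min livers. SCS liver 2 stood far above the other SCS 4 h livers. The log2 fold change of HMP 1 h over SCS 4 h was −0.70 (SE 0.211, edgeR adjusted p = 0.176), and it was −0.34 without SCS liver 2. Of HOPE 1 h over SCS 4 h it was −0.74 without that liver, against −1.09 with it, and of SCS 4 h over WI 30 min 0.32 without it, against 0.68 with it. Atp5pf, coupling factor 6 of the stalk, had 49.6, 52.2 and 54.4 CPM in HOPE 1 h livers, 49.2, 56.6 and 58.0 CPM in HMP 1 h livers, 74.0, 82.4 and 66.3 CPM in SCS 4 h livers and 61.2, 65.2 and 50.6 CPM in WI 30 min livers. The SCS 4 h livers were above the other 9, with a log2 fold change of −0.51 in HOPE 1 h livers (SE 0.127, edgeR adjusted p = 0.287).

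The identical c subunit of the rotor ring is made from the 3 genes Atp5mc1, Atp5mc2 and Atp5mc3, which had a median of 23.3%, 35.6% and 40.5% of their joint FPKM. Atp5mc2 took 36.8% ± 2.51 in HOPE 1 h, 40.8% ± 0.885 in HMP 1 h, 33.5% ± 2.95 in SCS 4 h and 33.7% ± 1.96 in WI 30 min livers (SD, n = 3 each). Log2 fold changes in HMP 1 h against SCS 4 h livers were −0.66 for Atp5mc1 (SE 0.182), −0.16 for Atp5mc2 (SE 0.113) and −0.60 for Atp5mc3 (SE 0.143, edgeR adjusted p = 0.100). In HOPE 1 h livers they were −0.53, −0.30 and −0.52. Atp5mc3 had 168, 212 and 190.3 CPM in HOPE 1 h livers, 157, 177 and 205 CPM in HMP 1 h livers, 277, 291 and 249.9 CPM in SCS 4 h livers and 254, 211 and 211 CPM in WI 30 min livers. Both perfused groups lay below the SCS 4 h livers, and WI liver 1 lay among these. Atp5if1, the inhibitor that limits ATP hydrolysis when respiration stops, had 10.7, 10.6 and 18.05 CPM in HOPE 1 h livers, 17.9, 10.9 and 13.5 CPM in HMP 1 h livers, 16.5, 21.4 and 10.9 CPM in SCS 4 h livers and 13.03, 15.2 and 10.5 CPM in WI 30 min livers. All groups overlapped for this gene, with a log2 fold change of −0.31 in HOPE 1 h against SCS 4 h livers (95% interval −0.93 to 0.31).

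The perfused groups were also set against warm ischemia alone. Between HOPE 1 h and WI 30 min, 5 members were lower at an unadjusted p under 0.05, against 4.16% of all genes, namely Ndufa3 (log2 fold change −0.57), Ndufb3 (−0.40), Ndufb7 (−0.35), Ndufb9 (−0.39) and Ndufc1 (−0.37). The median of the members was −0.15, beside 0.02 over all genes. Between HMP 1 h and WI 30 min, 6 members were lower, against 6.6% of all genes, namely Ndufb5 (−0.36), Ndufb7 (−0.30), Ndufb9 (−0.42), Ndufs1 (−0.50), Sdhc (−0.30) and Atp5mc3 (−0.33), with a median of −0.07 beside 0.03. The lowest edgeR adjusted p was 0.431 and 0.188 in these comparisons, and DESeq2 called 0 members in either. In both comparisons the members' counts were close to the share of all genes. The summed erythroid markers of all perfused livers were below those of all WI 30 min livers, and their part in these values was not tested. The count in HOPE 1 h was 1 without HOPE liver 1 or WI liver 1, 8 without HMP liver 1 and 9 without WI liver 3. That in HMP 1 h was 2 without WI liver 1, 3 without HMP liver 1 or HMP liver 2, 11 without WI liver 3 and 12 without HMP liver 3.

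Oxygenated and non-oxygenated perfusion were compared directly. Between HOPE 1 h and HMP 1 h the median log2 fold change of the members was −0.07, beside −0.01 over all genes, with 51 of 74 members negative. At an unadjusted p under 0.05, 3 members were lower, against 3.52% of all genes. They were Ndufa3 (−0.37), Atp5f1e (−0.30), the epsilon subunit of ATP synthase, and the uncertain Ndufa1 (−2.57). With the row of its copy added, Ndufa1 went in the other direction, with a log2 fold change of 3.63 (SE 1.57, edgeR unadjusted p = 0.0400). The uncertain Atp5pb, with its copy added, had −2.54 (SE 0.723, edgeR unadjusted p = 0.00437, edgeR adjusted p = 0.559). Ndufa1 had 0.114, 0.178 and 0.210 CPM in HOPE 1 h livers, at or near the level of 3 counts, and 0.229, 1.37 and 1.51 CPM in HMP 1 h livers. The count of 3 was 0 without HOPE liver 1 or HMP liver 3, 1 without HOPE liver 2, HOPE liver 3 or HMP liver 2, 5 without SCS liver 2 and 7 without HMP liver 1. Without copies summed, the lowest edgeR adjusted p was 0.628, and DESeq2 called 0 members. No difference between the perfused groups was thus detected at this depth and number of livers.

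Other genes of the same pathway were counted from lists. The assembly factors of the 5 complexes (49 tested) had a median of −0.25 in HOPE 1 h and −0.33 in HMP 1 h livers against SCS 4 h, and 15 and 21 were lower at an unadjusted p under 0.05, against 6.84% and 8.56% of all genes. In perfused against unperfused livers 23 were lower at that level, against 8.85% of all genes, and 1, Coa6, fell at the adjusted threshold, against 0.753%. Coa6, which helps deliver copper to the mitochondrially encoded COX2, had 1.08, 1.90 and 1.68 CPM in HOPE 1 h livers, 1.31, 1.81 and 1.78 CPM in HMP 1 h livers, 3.36, 3.85 and 3.86 CPM in SCS 4 h livers and 2.88, 2.999 and 2.72 CPM in WI 30 min livers. All perfused livers were below all unperfused livers, with a log2 fold change of −1.03 (SE 0.194, edgeR adjusted p = 0.0406). Of the 4 genes listed as subunits outside the name rule and cytochrome c, Ndufab1 had −0.52 in HOPE 1 h and −0.62 in HMP 1 h livers against SCS 4 h, Cyc1 −0.46 in both, Cycs (cytochrome c) −0.24 and −0.43, and Dmac2l 0.15 and 0.37. Their medians were −0.35 and −0.44, and edgeR called 0 of the 4, of which 2 and 3 were lower at an unadjusted p under 0.05. The 13 tested regulators of respiratory genes, such as Ppargc1a, Nrf1, Gabpa, Esrra and Tfam, had medians of 0.07 in HOPE 1 h and −0.10 in HMP 1 h livers against SCS 4 h, with 0 called by edgeR.

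The 13 mRNAs of mitochondrial DNA, which encode the other subunits of complexes I, III, IV and V, had shares of all counts of 6.52%, 9.15% and 10.1% in HOPE 1 h livers, 18.6%, 4.77% and 5.23% in HMP 1 h livers, 5.06%, 5.17% and 5.98% in SCS 4 h livers and 5.74%, 5.04% and 5.43% in WI 30 min livers. All HOPE 1 h livers lay above the SCS 4 h and WI 30 min livers, whereas HMP liver 1 was far above the rest and HMP livers 2 and 3 lay below or within the SCS 4 h range. Relative to SCS 4 h the median log2 fold change was 0.70 for HOPE 1 h livers and 0.86 for HMP 1 h livers, and it was 0.80 in perfused against unperfused livers, with all 13 positive in each where the medians of the nuclear members were negative. Without HMP liver 1 the median of HMP 1 h over SCS 4 h was 0.05, with 7 of 13 positive, that of perfused over unperfused livers was 0.36 with 12 positive, and that of HOPE 1 h over SCS 4 h was 0.69. Between HOPE 1 h and HMP 1 h it was −0.17 with all 13 negative, and 0.65 with all 13 positive without HMP liver 1.

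At an unadjusted p under 0.05, 2 of these mRNAs were higher in HOPE 1 h and 4 in HMP 1 h than in SCS 4 h livers, against 4.04% and 5.93% of all genes, and 10 in perfused against unperfused livers, against 8.82%. The edgeR threshold was passed by 0 in each. With 1 library left out the 3 counts ranged between 0 (without SCS liver 1 or SCS liver 2) and 11 (without HMP liver 1), between 2 (without HMP liver 1, SCS liver 1 or SCS liver 2) and 12 (without HMP liver 2), and between 7 and 12. Of the 13, DESeq2 called 0, 2 and 3 in the same order of comparisons. Over all genes it called 197 of 6979, 419 of 11873 and 731 of 12997 in either direction. In perfused against unperfused livers edgeR called 2 of the 13 without HMP liver 1 (114 of all genes) and 1 without the filter (197 of all genes). Within complex I the 7 mitochondrial mRNAs had a median of 0.75 in HOPE 1 h against SCS 4 h livers, beside −0.45 for the nuclear members. Within complex IV the 3 mitochondrial mRNAs had 0.66, within complex V both had a median of 0.70, and CYTB of complex III had 0.64. The part of the share taken by these mRNAs in the values of the nuclear members was not tested.

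Genes of other abundant complexes were set beside the members. Cytosolic ribosomal protein genes (83 tested) had a median of −0.25 in HOPE 1 h and −0.21 in HMP 1 h livers against SCS 4 h, mitochondrial ribosomal protein genes (73) −0.29 and −0.35, and genes of the constitutive proteasome (34) −0.44 and −0.58. In perfused against unperfused livers the medians were −0.10, −0.24 and −0.41, beside −0.27 for the respiratory members. At the adjusted threshold 3 of the 34 proteasome genes fell, beside 3 of the 74 respiratory members and 0.753% of all genes. Against WI 30 min, SCS 4 h livers had 0.24, 0.15 and 0.14 for these lists and 0.28 for the respiratory members. These values are descriptions and do not set the respiratory genes apart from the other lists.

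The members are short and abundant, and both properties moved with the fold change over all genes. Their median length was 693.5 bases, beside 2304 over all tested genes, and their median level was 79.1 CPM. Spearman's rho of the HOPE 1 h over SCS 4 h log2 fold change with length was 0.26 across the 13687 genes, which share libraries and are not independent replicates. Among the 74 members it was 0.32. With abundance, rho was −0.23 across all genes but 0.38, the opposite sign, among the members. By length class, the median was −0.51 for the 20 members of 0 to 500 bases, beside −0.12 for all such genes, −0.46 for the 32 of 500 to 1000 bases, beside −0.18, −0.37 for the 18 of 1000 to 2000 bases, beside −0.05, and −0.41 for the 4 over 2000 bases, beside 0.10. These differences between members and all genes of a class were not tested. With a length offset the median in HOPE 1 h against SCS 4 h livers was −0.31 and with an abundance offset −0.37, and in HMP 1 h livers it was −0.27 with either.

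Livers of the same group differed in the members together. After the group means were taken out, the correlation between 2 members over the 12 livers had a median r of 0.53 over 2701 pairs, with 0.54 for 804 pairs within a complex and 0.53 for 1897 pairs from different complexes. The members share libraries and depth, so this is a description. The same median was 0.43 for cytosolic ribosomal, 0.21 for mitochondrial ribosomal and 0.72 for proteasome genes. For 1000 genes spaced evenly over mean log2 CPM in the same libraries it was 9.77e-05. The members most like the median member were Atp5f1e (r = 0.96), Atp5md (0.96), Ndufb6 (0.95) and Cox4i1 (0.94), and the least like it were the uncertain Atp5pb (−0.77), Cox7b (−0.01), Ndufa10 (0.31) and Uqcrh (0.32).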

How the data were processed

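RNA-seq of 12 rat livers (4 groups of 3) was read from 1 deposited table that covers all samples. The authors aligned reads with Hisat2, assembled them with StringTie and deposited raw counts per gene and FPKM for each liver, with Rnor_6.0 as the build in the submitters' notes on processing. How reads were counted, and whether by strand, is stated in no source used here, so overlapping and antisense genes, like near-identical copies, are uncertain. The deposited group means, log2 fold changes and p-values of the authors' comparisons were not used. All 24 columns of values per liver were matched by name, and 0 were left over.

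Members were taken by symbol, with the row of the highest summed count where a symbol had several. The members and lists were chosen with earlier results of these data known. Counts were tested with edgeR 4.0.16 in R 4.3.3, by filterByExpr, TMM normalization and the quasi-likelihood F test in 1 model with a mean per group over 12 livers (residual df 8). P-values were adjusted over 13687 genes, and a gene was called under 0.05. Log2 CPM had a prior count of 2. The pipeline was tested on simulated data. FPKM were used for levels between genes only. The values of 1 member that the rule names enter the counts and medians but are not reported here.

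Named genes were all called members, core subunits, isoforms and regulators, per complex the 3 smallest p in comparisons with SCS 4 h, and per comparison the 3 members most against the median. Other genes in the text (Atp5f1e, Ndufb3, Ndufc1, Coa6 and those outside the members) were picked with their values in view, like the promoters shown and the counts at an unadjusted p. Alternatives were DESeq2 1.42.0, RLE normalization, length or abundance offsets, no filter, only the groups compared, a replicate block, leaving out each library or HMP liver 1 with HOPE liver 3, and, added after seeing the data, copies summed and the mRNAs of mitochondrial DNA under each alternative. Total counts were 15262961 to 18343167 per liver, and the median gene had a within-group SD of 0.292 in log2 CPM.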

Additional observations from a re-analysis of the deposited data

How the results depend on the processing

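With 3 livers a group, and near-identical copies that split counts, single genes are less certain than the direction of the group medians, which kept its sign in all alternatives run with HOPE 1 h or HMP 1 h against SCS 4 h, with SCS 4 h against WI 30 min and with perfused against unperfused livers. The number of members called in perfused against unperfused livers was 3 of 74, and 140 of all genes. It was 24 with DESeq2 (731 of all genes) and 0 with abundance offsets (64 of all genes). With the replicate number as a block it was 1 (66 of all genes). It was 0 with HMP liver 1 and HOPE liver 3 left out together (61 of all genes) and 0 to 4 with 1 library left out (0 to 166 of all genes). DESeq2 called 24 members in HOPE 1 h vs SCS 4 h (197 of all genes), 16 in HMP 1 h vs SCS 4 h (419) and 18 for any difference (540). Samples of the same number did not deviate together (r of −0.19 to 0.14, beside −0.23 to 0.33 for other numbers). The labels do not say whether the numbers pair the livers, and with 3 livers a group these values cannot decide it. The block changed no other count of members called. The median in HOPE 1 h vs SCS 4 h was −0.31 with length offsets. With 1 library left out the medians ranged between −0.16 and −0.01 (HOPE 1 h vs HMP 1 h), −0.52 and −0.39 (HOPE 1 h vs SCS 4 h), −0.24 and −0.09 (HOPE 1 h vs WI 30 min), −0.43 and −0.30 (HMP 1 h vs SCS 4 h), −0.16 and −0.01 (HMP 1 h vs WI 30 min), 0.20 and 0.35 (SCS 4 h vs WI 30 min) and −0.32 and −0.24 (perfused vs unperfused).

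Log2 fold changes that changed sign by more than 1 standard error were those of members near 0 or with a copy, and the cause was not tested. Ndufa1 had 1.44 (HOPE 1 h vs SCS 4 h), −2.18 (HMP 1 h vs SCS 4 h) and −0.33 (SCS 4 h vs WI 30 min) with copies summed, and, with 1 library left out, ranged between −0.32 (without SCS liver 1) and 2.47 in SCS 4 h vs WI 30 min and between −0.37 and 0.97 (without SCS liver 1) in perfused vs unperfused livers. With 1 library left out, Atp5pb ranged between −1.55 and 0.015 (without SCS liver 3) in HOPE 1 h vs SCS 4 h, between −1.79 (without HMP liver 1) and 1.48 in HMP 1 h vs SCS 4 h and between −0.33 (without SCS liver 3) and 1.52 in SCS 4 h vs WI 30 min. In HMP 1 h vs SCS 4 h, Ndufa4 ranged between −0.20 and 0.085 and Sdha between −0.23 and 0.0099, both highest without HMP liver 1, and without HMP liver 1 and HOPE liver 3 together Ndufa4 had 0.086, Sdha 0.010 and Atp5pb −1.79. Sdha had 0.032 (HOPE 1 h vs SCS 4 h) and 0.024 (HMP 1 h vs SCS 4 h) with abundance offsets, Atp5mc2 0.0011 (perfused vs unperfused) and Cox7b 0.049 (HMP 1 h vs SCS 4 h). With length offsets, Cox7b had 0.13, 0.060, −0.10 and 0.044 (HOPE 1 h vs SCS 4 h, HMP 1 h vs SCS 4 h, SCS 4 h vs WI 30 min and perfused vs unperfused), and Atp5mg 0.0029 (HOPE 1 h vs SCS 4 h) and 0.043 (HMP 1 h vs SCS 4 h).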
